A study of Mus musculus with 6 samples.

Results

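The 10 genes described here encode transcription factors of the myeloid blood lineages. They are Spi1, which encodes PU.1, the 5 C/EBP genes Cebpa, Cebpb, Cebpd, Cebpe and Cebpg, the repressor gene Gfi1, the interferon regulatory factor gene Irf8, and the broader blood factors Runx1 and Ikzf1. They were listed by symbol and joined to the Ensembl identifiers of the deposited count tables. All 10 were found among the 37620 genes counted, and all 10 passed the filter on low counts that left 14125 genes for testing. The cells were BFU-E (burst-forming units, erythroid), the committed progenitors that found the red cell lineage, and came from E14.5 fetal livers of 129/SvImJ mice. Cells bearing lineage markers, Sca-1, CD16/32, CD41 or CD34 had been depleted, and c-kit-positive cells among the lowest 10% for CD71 were sorted. There were 3 groups of 2 libraries. The first received 100 nM dexamethasone (Dex), a synthetic glucocorticoid, together with 10 µM GW7647, which activates the nuclear receptor PPARα. The next received 100 nM Dex alone, and the last was untreated. The labels name 1 serum-free medium, with SCF at 100 ng/mL, IGF-1 at 40 ng/mL and erythropoietin at 2 U/mL. No group received GW7647 alone. The labels state 12 h of treatment, whereas column headers of 1 of the 2 tables carry 36 h. The labels do not make clear whether the untreated cells spent that time in culture.

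PU.1 is an ETS-domain activator that drives macrophage, granulocyte and early B cell genes, and in the erythroid lineage it and GATA1 oppose each other's activity. The C/EBP proteins are leucine zipper factors that pair with each other, and C/EBPα in particular turns blood progenitors towards granulocytes and monocytes. Erythroid progenitors retain low levels of several of these factors, which normally decline as red cell differentiation proceeds. Glucocorticoids are known for extending the self-renewal of BFU-E.

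The libraries held between 35970286 and 54174801 counts. Globin genes took 2.82% and 2.75% of counts with Dex plus GW7647, 3.12% and 2.96% with Dex, and 6.48% and 7.15% in untreated cells. The share of mitochondrial counts was 1.72% in Dex replicate 1 and lay between 2.46% and 2.88% in the other 5 libraries. All 10 erythroid markers examined, Gata1, Klf1, Epor and Kit among them, had counts in every library. The sources do not say that the libraries of a group came from separate cultures or animals, so the p-values measure the spread between these libraries, which may be technical. By chi-square per degree of freedom, replicates differed most with Dex (20.9), less in untreated cells (8.57) and least with Dex plus GW7647 (3.87). The test used 1 estimate of spread per gene over the 3 groups, so it does not reflect the Dex libraries alone. In bulk RNA a lower value can come from fewer cells of a type or from less RNA per cell, and these cannot be told apart here.

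RefSeq promoter windows of 300 bases, from 250 before to 50 after an annotated start on build GRCm38.p6, were found for 7 of the 10 genes and comprised 11 windows. Spi1, Cebpd and Cebpe had none. Both strands were searched for AGAACA (bound by the glucocorticoid receptor), AGGTCA (other nuclear receptors), GATAA (GATA factors), GAGGAA (PU.1), TTGCNNAA (C/EBP), TGTGGT (RUNX), TATAAA (the core promoter box of that name) and CCAAT (bound by NF-Y). The sequences below belong to 4 genes that were lower and 1 that was higher with Dex than in untreated cells. Capitals mark matches, shown as ATTGG for CCAAT and ACCACA for TGTGGT where the match lies on the opposite strand. All sequences read 5′ to 3′ along the gene.
Cebpa, chr7:35119043-35119342, + strand: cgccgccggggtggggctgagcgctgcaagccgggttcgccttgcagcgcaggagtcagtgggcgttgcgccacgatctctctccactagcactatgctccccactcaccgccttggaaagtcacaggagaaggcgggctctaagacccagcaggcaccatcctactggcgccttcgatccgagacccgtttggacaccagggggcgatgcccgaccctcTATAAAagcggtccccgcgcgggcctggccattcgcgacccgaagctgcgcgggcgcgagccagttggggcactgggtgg
Cebpb, chr2:167688665-167688964, + strand: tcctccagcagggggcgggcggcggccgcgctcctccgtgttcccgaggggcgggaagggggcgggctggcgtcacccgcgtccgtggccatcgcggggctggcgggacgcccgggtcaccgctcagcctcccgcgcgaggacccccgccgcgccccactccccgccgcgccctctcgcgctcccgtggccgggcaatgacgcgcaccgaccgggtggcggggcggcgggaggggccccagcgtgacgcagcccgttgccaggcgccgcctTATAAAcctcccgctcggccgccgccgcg
Irf8, chr8:120736108-120736407, + strand: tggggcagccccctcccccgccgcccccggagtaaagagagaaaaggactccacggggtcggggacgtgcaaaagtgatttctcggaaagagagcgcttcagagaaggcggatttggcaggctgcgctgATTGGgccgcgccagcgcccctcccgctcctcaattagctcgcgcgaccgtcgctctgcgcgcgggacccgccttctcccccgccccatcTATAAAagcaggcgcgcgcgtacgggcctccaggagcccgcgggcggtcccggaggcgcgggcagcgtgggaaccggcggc
Runx1, chr16:92826025-92826324, - strand: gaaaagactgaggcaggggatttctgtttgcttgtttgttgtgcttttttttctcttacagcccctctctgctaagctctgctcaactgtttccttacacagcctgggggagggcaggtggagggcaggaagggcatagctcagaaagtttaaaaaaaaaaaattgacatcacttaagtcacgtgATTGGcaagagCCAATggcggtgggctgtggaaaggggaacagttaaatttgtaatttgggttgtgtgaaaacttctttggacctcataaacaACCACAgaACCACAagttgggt
Ikzf1, chr11:11689927-11690226, + strand: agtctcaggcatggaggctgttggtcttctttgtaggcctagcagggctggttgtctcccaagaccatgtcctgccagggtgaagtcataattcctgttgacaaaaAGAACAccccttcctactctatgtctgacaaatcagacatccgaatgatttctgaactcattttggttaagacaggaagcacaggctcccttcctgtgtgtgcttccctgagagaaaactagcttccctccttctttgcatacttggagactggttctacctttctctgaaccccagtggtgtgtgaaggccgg

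Counting the first base of the gene as 1 and the base before it as -1, TATAAA began at position -30 in Cebpa and at -31 in Irf8. In Cebpb it began at position 22, inside the transcribed part. The 11 windows held TATAAA in 3, against 13.62% of all 32851 RefSeq windows of this length, and CCAAT in 4, against 37.41%. AGAACA, the hexamer bound by the glucocorticoid receptor, occurred in 1 window, the one shown for Ikzf1, where it began at position -144, and in 18.97% of all windows. The other Ikzf1 window, not shown, held no match to any of the motifs. The window shown for Runx1 held TGTGGT, its own family's motif, at positions 29 and 37, and 16.76% of all windows held it. A second Runx1 window held GAGGAA, found in 28.28% of all windows, and a Gfi1 window held TTGCNNAA, found in 10.8%. AGGTCA and GATAA were in none of the 11 windows and in 16.26% and 25.41% of all windows. The matches did not overlap one another. They are letter matches only.

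**Figure D1:**
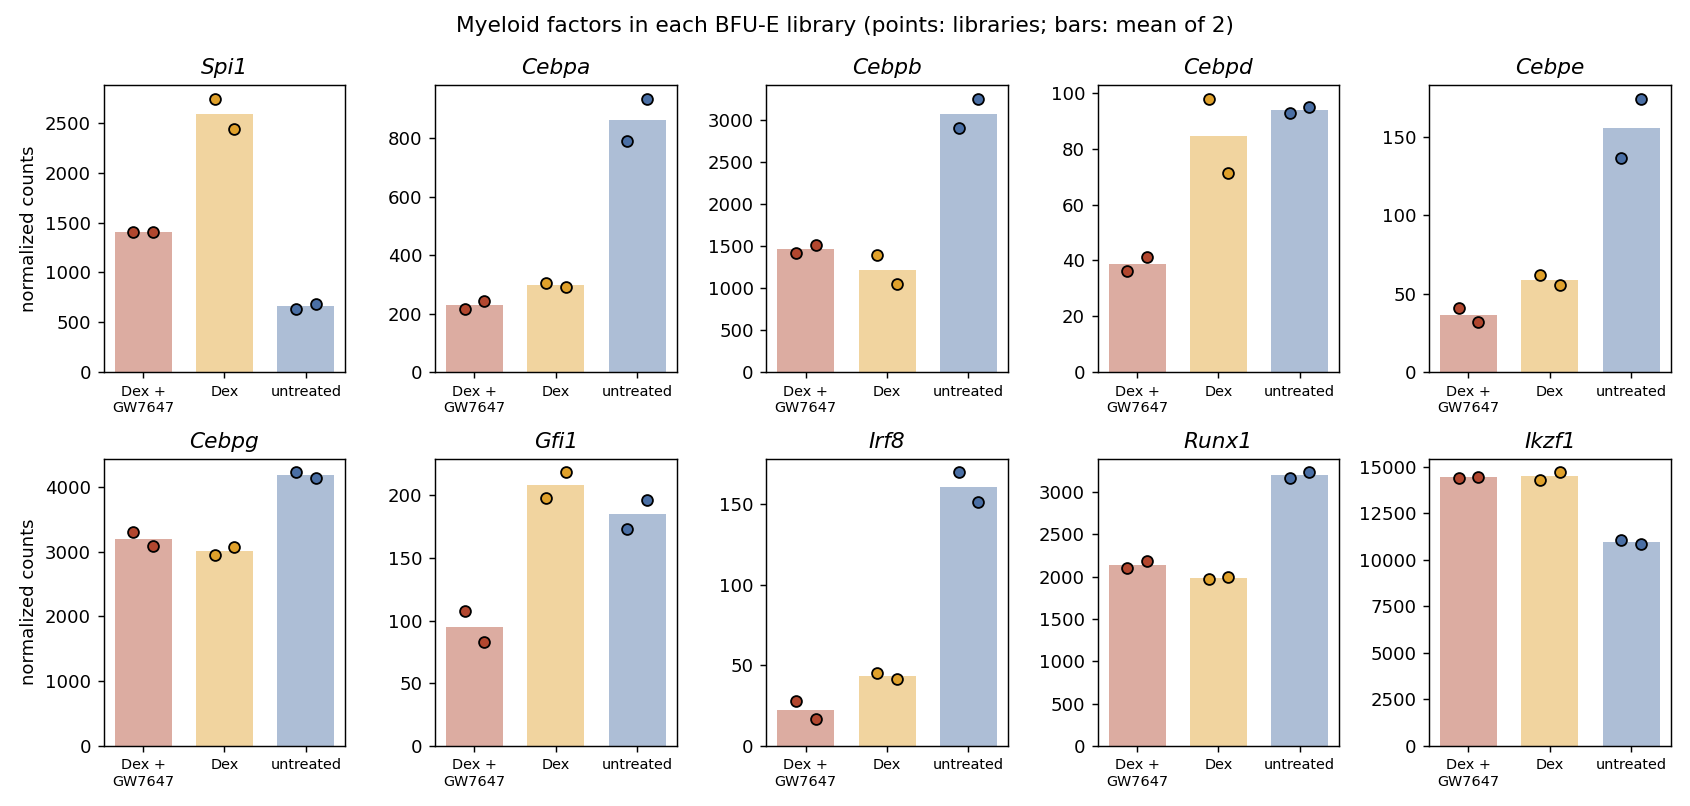
Normalized counts of the 10 genes in each library. Each panel has its own axis from 0, points are single libraries, bars are the mean of 2 libraries without an error bar, and the groups run Dex plus GW7647, Dex, untreated. Spi1 stood highest in the Dex libraries, at 2745 and 2444, while Cebpa, Cebpb, Cebpe, Irf8 and Runx1 stood highest in the untreated libraries.

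With Dex, 2 of the 10 genes were called higher than in untreated cells, Spi1 and Ikzf1, and 6 were called lower, namely Cebpa, Cebpb, Cebpe, Cebpg, Irf8 and Runx1. Cebpd and Gfi1 were not called. A call means an adjusted p at or below 0.05 in the edgeR quasi-likelihood test over all 14125 genes. Calls were common in this comparison, at 51.6% of all genes, with 25.5% called higher and 26.0% called lower. The median log2 difference was -0.58 over the 10 genes and 0.01 over all genes, and the median size regardless of sign was 1.01 against 0.27. The 2 Dex libraries lay outside the range of the untreated libraries for 9 of the 10 genes, as they did for 73.0% of all genes.

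Dex plus GW7647 against Dex gave 3 genes called lower, Spi1, Cebpd and Gfi1, and 0 called higher. Among all genes 9.73% were called, 2.15% higher and 7.58% lower. The median log2 difference was -0.53 for the 10 genes and 0.00 for all genes, and the libraries of the 2 groups did not overlap for 9 of the 10 genes, as for 53.5% of all genes. Cebpa, Cebpe and Irf8 also had both libraries below those with Dex but missed the threshold. At an unadjusted p under 0.05, 0 of the 10 genes were higher with Dex plus GW7647 than with Dex, and DESeq2 and limma-trend also called 0 higher. Cebpb and Runx1 missed that limit only narrowly, and Cebpb, Cebpg and Runx1 had both libraries above those with Dex. Cebpb was called higher with no filter on low counts and with a block that crosses the replicate numbers. Without Dex replicate 1, edgeR called 1 gene higher, Cebpb.

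All 10 genes were called with Dex plus GW7647 against untreated cells, Spi1 and Ikzf1 higher and the other 8 lower. Among all genes 49.7% were called, 24.7% higher and 25.1% lower, and the libraries of these groups did not overlap for 76.2%, and for all 10 of the genes described here. The median log2 difference was -1.01 over the 10 genes and 0.02 over all genes. Each comparison shares its libraries with another, so their values are not independent of each other. Scaling by total counts instead of TMM put the median log2 difference of all genes at 0.14 in both comparisons with untreated cells and changed none of the calls of the 10 genes.

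**Figure D2:**
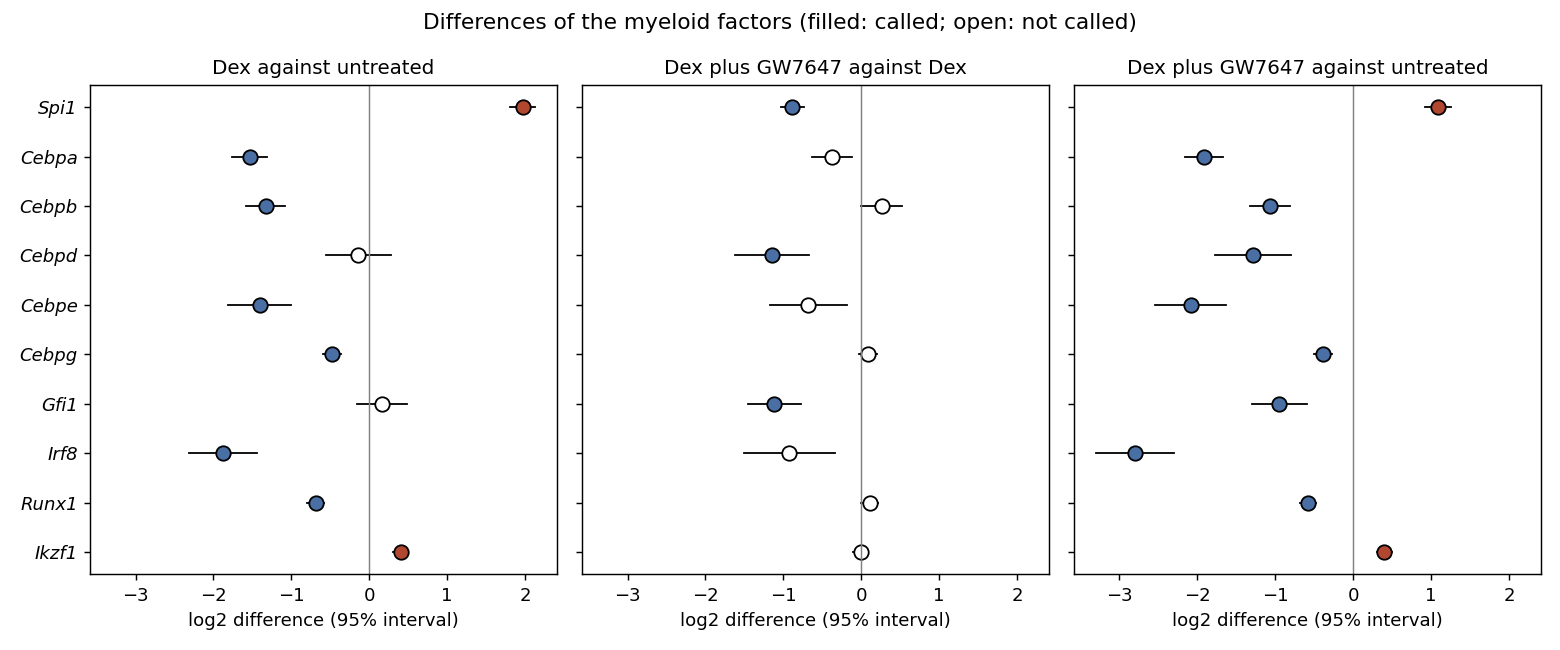
Log2 differences of the 10 genes in the 3 comparisons, with 95% intervals. Filled points were called and open points were not, with red for higher and blue for lower. Spi1 lay at 1.97 for Dex against untreated cells, at -0.88 for Dex plus GW7647 against Dex, and at 1.09 for Dex plus GW7647 against untreated cells.

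Spi1 (ENSMUSG00000002111) encodes PU.1. It had 1404 and 1410.2 normalized counts with Dex plus GW7647, 2745 and 2444 with Dex, and 636 and 688 in untreated cells. The groups did not overlap, and the libraries with both drugs lay between the other 2 groups. Spi1 rose by 1.97 ± 0.07 (log2 ± SE) with Dex against untreated cells, a 3.92-fold higher level (adjusted p = 2.14e-08). This was rank 239 from the highest among 14125 log2 differences. It fell by 0.88 ± 0.07 with Dex plus GW7647 against Dex (adjusted p = 3.43e-05), to 54.2% of the Dex level. It was still 2.12-fold higher with both drugs than in untreated cells (adjusted p = 1.59e-06). Its call held in all 3 comparisons under every alternative run, with log2 differences between 1.89 and 2.10 for Dex against untreated cells.

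Gata1, the erythroid factor that PU.1 opposes, had 10374 and 10348 normalized counts with Dex plus GW7647, 10662 and 10226 with Dex, and 11483 and 12377 in untreated cells. It was called lower with Dex than in untreated cells, by a log2 difference of only -0.19 (adjusted p = 0.01), and its difference between Dex plus GW7647 and Dex was -0.01 (adjusted p = 0.924). Per kilobase of exon, the ratio of Gata1 to Spi1 was 8.17 and 8.11 with Dex plus GW7647, 4.29 and 4.62 with Dex, and 19.97 and 19.89 in untreated cells. The ratio was lowest in the Dex libraries and highest in the untreated ones, and Spi1 moved by more than Gata1 in each comparison.

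Cebpa (ENSMUSG00000034957) encodes C/EBPα, needed for granulocyte and monocyte progenitors. It had 217 and 243 normalized counts with Dex plus GW7647, 303 and 292 with Dex, and 790 and 935 in untreated cells, so that untreated cells stood apart from both treated groups. Cebpa fell by 1.54 ± 0.10 on the log2 scale with Dex against untreated cells (adjusted p = 1.12e-06), to 34.5% of the untreated level. Against Dex, the difference with both drugs was -0.38 ± 0.11, with both libraries lower but an adjusted p of 0.0685. Against untreated cells it was -1.91 ± 0.11 (adjusted p = 3.97e-07).

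Cebpb (ENSMUSG00000056501), whose product C/EBPβ acts in macrophages and in granulocyte production under stress, had 1418 and 1519 normalized counts with Dex plus GW7647, 1396 and 1044 with Dex, and 2902 and 3258 in untreated cells. Relative to their mean, the 2 Dex libraries were further apart than those of the other groups. Cebpb fell by 1.33 ± 0.11 with Dex against untreated cells (adjusted p = 6.54e-06), and by 1.07 ± 0.11 with both drugs against untreated cells (adjusted p = 3.35e-05). Its log2 difference between Dex plus GW7647 and Dex was 0.26 ± 0.12, which was not called (adjusted p = 0.206). Each Dex library moved this value: the difference was 0.49 without Dex replicate 1 (adjusted p = 0.00424) and 0.08 without Dex replicate 2 (adjusted p = 0.536). Tmem189 overlaps Cebpb on the opposite strand and carried 1609 to 3290 counts per library. Whether counting used strand is not stated, so reads of the pair may be mixed. The log2 difference of Tmem189 with Dex against untreated cells was 0.20.

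Cebpe (ENSMUSG00000052435), whose product directs late granulocyte maturation and secondary granule genes, was a low gene, with 40.6 and 31.9 normalized counts with Dex plus GW7647, 61.7 and 55.3 with Dex, and 137 and 175 in untreated cells. The 3 groups were separate and followed the same order as for Cebpa. It fell by 1.41 ± 0.18 with Dex against untreated cells (adjusted p = 0.000127) and by 2.08 ± 0.20 with both drugs against untreated cells (adjusted p = 1.80e-05). The difference between Dex plus GW7647 and Dex was -0.68 ± 0.22 and was not called (adjusted p = 0.0905).

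Cebpd (ENSMUSG00000071637), an inflammation-responsive C/EBP gene, was called only in the comparisons of Dex plus GW7647. It had 36.1 and 41.3 normalized counts with Dex plus GW7647, 98.0 and 71.3 with Dex, and 92.9 and 94.8 in untreated cells. The Dex and untreated libraries overlapped, and the libraries with both drugs lay below all others. The log2 difference between Dex and untreated cells was -0.14 ± 0.19, with a 95% interval from -0.56 to 0.28. Cebpd fell by 1.15 ± 0.21 with Dex plus GW7647 against Dex (adjusted p = 0.00775) and by 1.28 ± 0.22 against untreated cells (adjusted p = 0.000786). Leaving out replicate 1 with both drugs gave -1.04 against Dex and an adjusted p of 0.0865. Counts of Cebpd were 35 to 127 per library, and Spidr, which overlaps it on the opposite strand, had 1244 to 2267, so Cebpd reads may include some from Spidr.

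Cebpg (ENSMUSG00000056216) encodes C/EBPγ, a short C/EBP protein that pairs with other leucine zipper factors, ATF4 among them. It had 3309.8 and 3096 normalized counts with Dex plus GW7647, 2954 and 3073 with Dex, and 4229 and 4141 in untreated cells. The untreated libraries stood apart, while the 2 treated groups lay close to each other. Cebpg fell by 0.47 ± 0.05 with Dex (adjusted p = 3.53e-05) and by 0.38 ± 0.05 with both drugs (adjusted p = 0.000166), each against untreated cells. The difference between Dex plus GW7647 and Dex was 0.09 ± 0.05, with a 95% interval from -0.03 to 0.20.

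Per kilobase of exon, the 5 C/EBP genes summed to 38.2 and 38.9 CPM (counts scaled to library size) with Dex plus GW7647, 37.9 and 32.6 with Dex, and 71.8 and 78.9 in untreated cells. All 4 treated libraries lay below both untreated ones. Cebpb supplied most of the sum in 5 libraries, at 56.9% and 59.8% with Dex plus GW7647, 56.4% and 49.0% with Dex, and 61.9% and 63.3% in untreated cells. The share from Cebpg was 35.6% and 32.6% with Dex plus GW7647, 32.0% and 38.6% with Dex, and 24.1% and 21.5% in untreated cells. The share from Cebpa was 4.96% and 5.46% with Dex plus GW7647, 6.99% and 7.82% with Dex, and 9.61% and 10.4% in untreated cells. Cebpg therefore made up more of the C/EBP transcripts, and Cebpa less, in every treated library than in either untreated one. These shares rest on exon lengths of a later annotation, and no test was made of them.

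**Figure D3:**
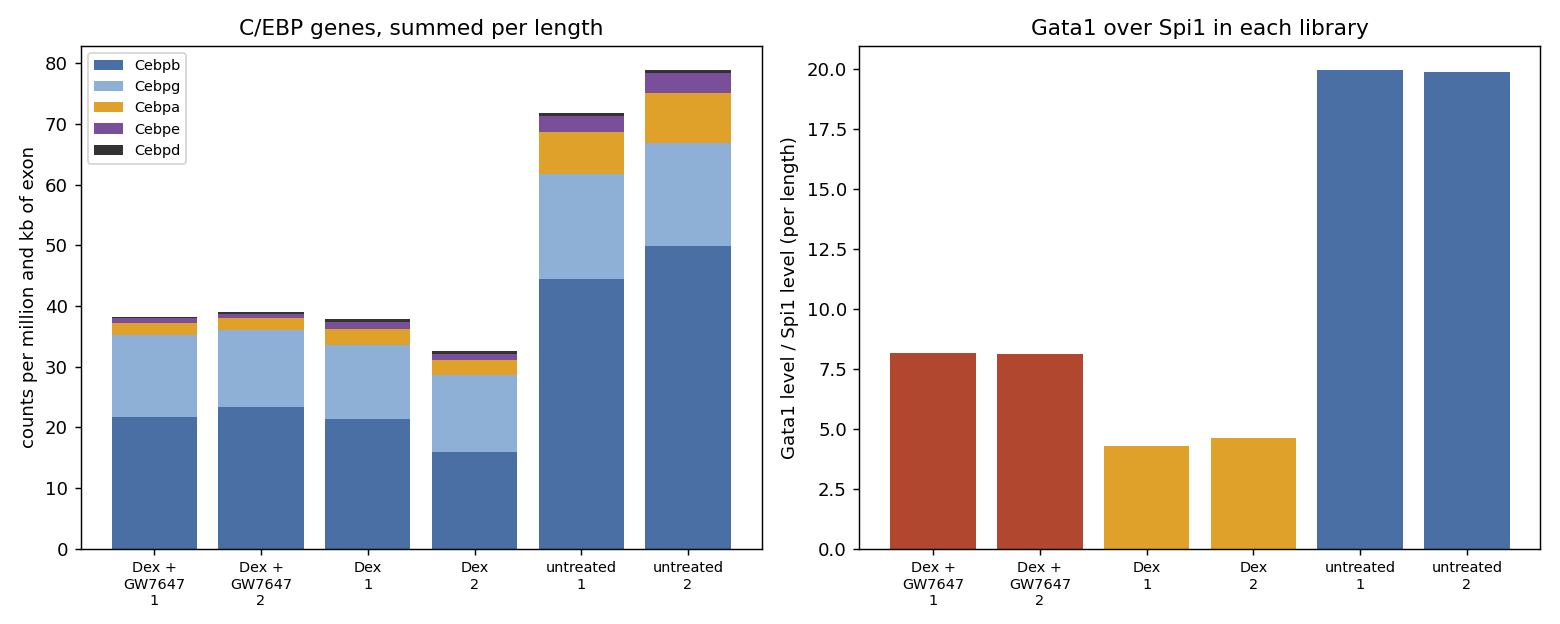
Left, the 5 C/EBP genes stacked in CPM per kilobase of exon for each library, from 38.2 and 38.9 with Dex plus GW7647 through 37.9 and 32.6 with Dex to 71.8 and 78.9 in untreated cells. Right, the ratio of Gata1 to Spi1 per kilobase in each library, lowest with Dex at 4.29 and 4.62; both axes start at 0 and each bar is a single library.

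Irf8 (ENSMUSG00000041515), whose product favours monocytes and dendritic cells over granulocytes, was the lowest of the 10 genes per kilobase in every group. It had 28.0 and 16.5 normalized counts with Dex plus GW7647, 45.5 and 41.3 with Dex, and 170 and 151 in untreated cells, with no overlap between groups. In untreated cells its mean of 161 normalized counts exceeded those of Cebpe (156) and Cebpd (93.9). Its last place per kilobase there thus rests on the exon lengths used. Irf8 fell by 1.88 ± 0.19 with Dex against untreated cells (adjusted p = 2.59e-05). With both drugs it fell by 2.80 ± 0.22 against untreated cells (adjusted p = 4.45e-06), to 13.8% of the untreated level and rank 129 from the lowest of all genes. Between Dex plus GW7647 and Dex the difference was -0.92 ± 0.26 with an adjusted p of 0.0538. This rested on 31 and 14 counts with both drugs against 59 and 44 with Dex, and it passed the threshold under 4 of the alternatives, among them limma-trend with an adjusted p of 0.038.

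Gfi1 (ENSMUSG00000029275) encodes a zinc finger repressor required for neutrophil production. It had 107 and 82.7 normalized counts with Dex plus GW7647, 198 and 218 with Dex, and 174 and 197 in untreated cells. The libraries with both drugs lay below all others, while the Dex and untreated ranges nearly touched. Gfi1 fell by 1.11 ± 0.15 with Dex plus GW7647 against Dex (adjusted p = 0.00134), to 45.6% of the Dex level, and by 0.95 ± 0.16 against untreated cells (adjusted p = 0.000747). Dex against untreated cells gave 0.17 ± 0.14, with a 95% interval from -0.15 to 0.49 (adjusted p = 0.36). Gfi1b, its erythroid and megakaryocytic paralogue, averaged 8402 ± 96.7 normalized counts with Dex plus GW7647, 7535 ± 128 with Dex and 6287 ± 217 in untreated cells (SD, n = 2 each). Per kilobase, Gfi1b exceeded Gfi1 by a factor of 135 and 178 with Dex plus GW7647, 67.0 and 59.3 with Dex, and 61.5 and 57.1 in untreated cells.

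Runx1 (ENSMUSG00000022952) encodes a DNA-binding subunit of core-binding factor, needed for the first blood stem cells and later for megakaryocytes. It had 2100.3 and 2186 normalized counts with Dex plus GW7647, 1977 and 2002 with Dex, and 3166 and 3234 in untreated cells, and replicates were close to each other throughout. Runx1 fell by 0.69 ± 0.05 with Dex (adjusted p = 1.63e-06) and by 0.58 ± 0.05 with both drugs (adjusted p = 5.97e-06), each against untreated cells. Between Dex plus GW7647 and Dex the difference was 0.11 ± 0.05, with a 95% interval from -0.00 to 0.22 (adjusted p = 0.212).

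Ikzf1 (ENSMUSG00000018654) encodes Ikaros, a zinc finger factor known for lymphoid development that is also active in erythroid progenitors. It was the most abundant of the 10 genes by count, with 14413 and 14470.1 normalized counts with Dex plus GW7647, 14281 and 14700 with Dex, and 11043 and 10868 in untreated cells. The treated groups overlapped each other and both stood above the untreated libraries. Ikzf1 rose by 0.40 ± 0.04 with Dex (adjusted p = 3.51e-05) and by 0.40 ± 0.04 with both drugs (adjusted p = 4.17e-05), each against untreated cells. Dex plus GW7647 against Dex gave -0.00 ± 0.04, with a 95% interval from -0.10 to 0.09.

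Set against each other per kilobase of exon, the genes spanned a wide range of levels. With Dex plus GW7647 the order was Ikzf1 at 57.6 CPM per kilobase, Cebpb at 22.5, Cebpg at 13.1, Spi1 at 12.0, Runx1 at 4.11, Cebpa at 2.01, Gfi1 at 0.69, Cebpe at 0.67, Cebpd at 0.24 and Irf8 at 0.073, and the ranges of Gfi1 and Cebpe overlapped. With Dex, Ikzf1 at 57.8 was followed by Spi1 at 22.2 and Cebpb at 18.7, whose ranges overlapped, and then by Cebpg at 12.4 and Runx1 at 3.81. In untreated cells Cebpb led with 47.2, followed by Ikzf1 at 43.7, Cebpg at 17.2, Cebpa at 7.54, Runx1 at 6.13 and Spi1 at 5.66, and no neighbours overlapped. Spi1 thus stood below Cebpa in untreated cells and above it in both treated groups.

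The 3 genes nearest in pattern to each factor were taken by the distance between gene-centred log2 values over the 6 libraries, among genes with at least 100 normalized counts on average. For Spi1 they were Hopx at a distance of 0.18, Tnfaip8l1 and Laptm5. Hopx averaged 360 normalized counts with Dex plus GW7647, 641 with Dex and 163 in untreated cells. For Cebpa they were Pls1 at 0.12, F2rl3 and Fcer1g, and for Cebpd they were Coro1a at 0.24, Cyba and Ikbke. Coro1a and Fcer1g also belong to the list of PU.1 target genes described next. For Gfi1 they were Ankrd35 at 0.20, Tek and F930017D23Rik, and for Irf8 they were Il21r at 0.39, Pde3a and Trpc6. Cebpb had Shf, Marveld1 and Agap1, and Cebpe had Tes, Ifitm1 and Pdgfb. Cebpg had Crebbp, Mrps10 and Elf2, Runx1 had Tle4 and Narf, and Ikzf1 had Map3k2, Nek9 and Fam172a. For these last 3 factors the distances were at most 0.072.

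Genes commonly described as PU.1 targets in macrophages and granulocytes numbered 24, of which 22 passed the filter. They were lower in most cases, although Spi1 itself was higher with Dex. The median log2 difference of the 22 with Dex against untreated cells was -0.87, against 0.01 for all genes. In that comparison 5 were called higher and 13 lower, against 25.5% and 26.0% of all genes. Csf2rb, the common β chain of the IL-3, IL-5 and GM-CSF receptors, was among the higher ones. It had 26902 and 27522 normalized counts with Dex plus GW7647, 45440 and 45347 with Dex, and 13232 and 13949 in untreated cells. It was highest with Dex, like Spi1, with log2 differences of 1.74 ± 0.05 for Dex against untreated cells (adjusted p = 3.83e-09) and -0.74 ± 0.05 for Dex plus GW7647 against Dex (adjusted p = 1.08e-05). Csf2rb has a close paralogue, Csf2rb2, that may share its reads.

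The most significant decreases with Dex in that list were those of Lyz2, the macrophage lysozyme, and Fcer1g, the Fc receptor γ chain. Lyz2 had 206 and 207 normalized counts with Dex plus GW7647, 341 and 362 with Dex, and 1307 and 1226 in untreated cells, and its reads may be shared with its close copy Lyz1. Fcer1g had 232 and 231 with Dex plus GW7647, 310.2 and 309 with Dex, and 773 and 879 in untreated cells. Both followed the order seen for Cebpa and Cebpe. Between Dex plus GW7647 and Dex, 13 of the 22 genes were called lower and 0 higher, against 7.58% and 2.15% of all genes. The median was -0.68 for the list and 0.00 for all genes. No gene of the list was higher at an unadjusted p under 0.05, and DESeq2 and limma-trend called 0 higher. DESeq2 called 9 of them lower, and 7 were called without replicate 1 of Dex plus GW7647. Ncf1, which encodes a subunit of the phagocyte NADPH oxidase, fell by 1.33 (adjusted p = 1.64e-05) and Coro1a, an actin regulator of leukocytes, by 1.10 (adjusted p = 2.67e-05). Against untreated cells, 17 were called lower and 3 higher with both drugs, with a median of -1.42. Among all genes 25.1% were called lower and 24.7% higher, with a median of 0.02. Tyrobp, an adaptor of myeloid receptors, fell by 1.83 there (adjusted p = 6.46e-07).

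Granule genes that C/EBP factors are known to drive numbered 15, with 14 tested. With Dex against untreated cells 9 were called lower and 2 higher, against 26.0% and 25.5% of all genes. The median log2 difference was -0.75 over these granule genes and 0.01 over all genes. Mpo, myeloperoxidase, had 2353 and 2360 normalized counts with Dex plus GW7647, 3572 and 3353 with Dex, and 7834 and 8566 in untreated cells. The serine protease genes Elane, Prtn3 and Ctsg followed the same order as Mpo. The log2 difference of Ctsg was -1.21 with Dex against untreated cells (adjusted p = 4.77e-07) and that of Prtn3 was -1.09 (adjusted p = 1.80e-06). The 2 higher genes, named because of their values, were Lcn2 and Chil3, and Chil3 averaged 51.5 normalized counts with Dex plus GW7647, 69.4 with Dex and 2.99 in untreated cells. Of the 14 genes, 11 were called lower and 0 higher with Dex plus GW7647 against Dex, against 7.58% and 2.15% of all genes. Their median was -0.83, against 0.00 for all genes. Of the 14, 0 were higher at an unadjusted p under 0.05, in DESeq2 or in limma-trend. Elane fell by 1.31 ± 0.11 (adjusted p = 6.81e-05), averaging 132 ± 8.36 with Dex plus GW7647, 326 ± 24.0 with Dex and 681 ± 43.0 in untreated cells (SD, n = 2 each). S100a8, a calcium-binding neutrophil protein gene, fell by 0.79 in the same comparison (adjusted p = 8.64e-05). With both drugs against untreated cells, 11 were called lower and 1, Chil3, higher, with a median of -1.64. Among all genes 25.1% were called lower and 24.7% higher, with a median of 0.02.

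**Figure D4:**
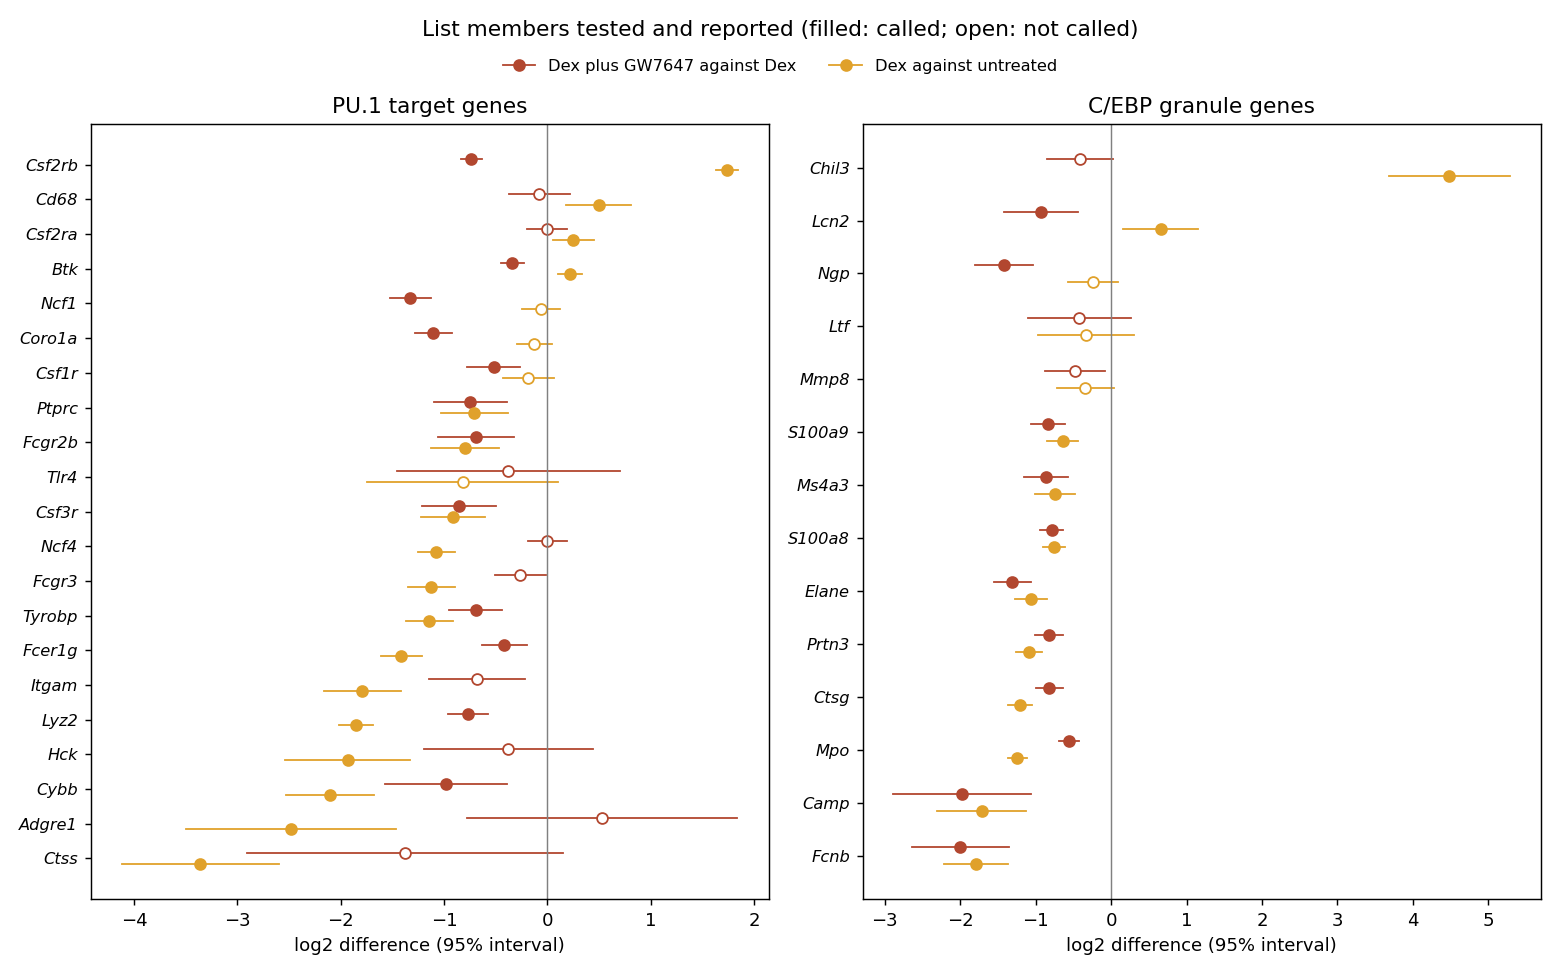
Log2 differences with 95% intervals of the tested and reported PU.1 target genes (left) and C/EBP granule genes (right), in red for Dex plus GW7647 against Dex and in yellow for Dex against untreated cells; filled points were called. Csf2rb lay left of 0 for Dex plus GW7647 against Dex, at -0.74, and right of 0 for Dex against untreated cells, at 1.74.

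Summed markers of several other cell types, though not all, differed between these groups. Neutrophil markers summed to 25.0 to 26.2 CPM with Dex plus GW7647, 44.5 to 46.0 with Dex and 71.5 to 74.8 in untreated cells. Of these 8 markers, 6 had counts in every library and are themselves granule genes of the list above, while the defining markers Ly6g and Retnlg were at 0 in all 6 libraries. Monocyte and macrophage markers summed to 8.68 to 8.86 with Dex plus GW7647, 12.4 to 12.9 with Dex and 17.2 to 18.8 in untreated cells. Between 6 and 8 of the 10 had counts in a library, C1qa and Cd163 were at 0 in all, and 3 of the 10 are also on the PU.1 target list. Of the 5 tested, 3 were called lower with Dex than in untreated cells, namely Adgre1, Ly6c2 and Ccr2. Cd68 went the other way and was called higher (log2 difference 0.50), while Csf1r was not called. The part of such cells in the results on the 10 factors was not tested.

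Mast cell and basophil markers summed to 130 to 133 with Dex plus GW7647, 226 to 233 with Dex and 143 in each untreated library, with 7 to 9 of 9 having counts. Like Spi1 this sum was highest with Dex, while with both drugs it lay below untreated cells, unlike Spi1. Most of the sum in the treated libraries came from 1 gene, Hdc. It averaged 5030 normalized counts with Dex plus GW7647, 8683 with Dex and 1749 in untreated cells. Of the 8 tested mast cell and basophil markers, 6 were called lower with Dex than in untreated cells, and 2, Hdc and Tpsb2, higher. Megakaryocyte markers summed to 349 to 350 with Dex plus GW7647, 469 to 510 with Dex and 995 to 1047 in untreated cells, with all 9 having counts. The 3 eosinophil markers, of which 1 to 3 had counts, summed to 0.95 to 1.02 with Dex plus GW7647, 1.62 to 1.90 with Dex and 9.72 to 10.1 in untreated cells. Lymphoid markers summed to 6.48 to 8.09 over all 6 libraries, with 5 to 8 of 9 having counts, and endothelial and stromal markers to 18.8 to 23.8 with 5 of 6. The endothelial and stromal sum hid opposite differences between Dex and untreated cells. Of the 3 tested, Pdgfrb was called higher with Dex (log2 difference 1.68), and Pecam1 (-1.33) and Kdr (-1.06) were called lower. Hepatoblast markers, of which 4 or 5 of 5 had counts, summed to 4.41 to 4.52 with Dex plus GW7647, 6.22 to 6.36 with Dex and 1.09 to 1.41 in untreated cells, the order of Spi1. All 3 tested hepatoblast markers were called higher with Dex than in untreated cells. Apoa1, the largest part of the sum in the treated libraries, had 205 and 163 counts with Dex and 8 and 4 in untreated cells. The hepatoblast markers Alb and Ttr were near the floor, with 1 to 5 counts per library for Alb and 0 or 1 for Ttr. Erythroid markers summed to 22468 to 22691 with Dex plus GW7647, 22204 to 22892 with Dex and 48337 to 50886 in untreated cells. The globin genes Hba-a1 and Hbb-bs had the most counts of these 10 in every library. With Dex against untreated cells 7 of the 10 were called lower and 1, Kit, higher, while Klf1 and Epor were not called. Among all genes 25.5% were called higher and 26.0% lower in that comparison. The part of these cell types in the results was not tested either.

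Relatives of the 10 factors in the ETS, GFI, IRF, RUNX, Ikaros and C/EBP families numbered 18, and 16 were tested. With Dex against untreated cells 4 were called higher and 7 lower, and with total count scaling 5 and 6. Among all genes 25.5% were called higher and 26.0% lower with TMM scaling. The median log2 difference was -0.24 over the relatives and 0.01 over all genes. Ddit3, the stress-induced C/EBP relative CHOP, had 4319.8 and 4566 normalized counts with Dex plus GW7647, 4495 and 4423 with Dex, and 13249 and 12990.0 in untreated cells. It fell by 1.56 ± 0.05 with Dex against untreated cells (adjusted p = 8.08e-09). Ikzf4, which encodes Eos, fell by 2.52 (adjusted p = 6.86e-07) and Irf7, an interferon response factor, by 1.36 (adjusted p = 1.54e-05) in that comparison. Ikzf2, which encodes Helios, averaged 379 ± 39.8 with Dex plus GW7647, 679 ± 31.6 with Dex and 252 ± 25.1 in untreated cells (SD, n = 2 each). Like Spi1 it was highest with Dex, at 1.43 ± 0.10 against untreated cells (adjusted p = 2.34e-06), and fell by 0.83 ± 0.10 with Dex plus GW7647 against Dex (adjusted p = 0.000579). Ikzf2 and Runx2 were the 2 relatives called lower with Dex plus GW7647 than with Dex, where 7.58% of all genes were called lower. In edgeR, DESeq2 and limma-trend 0 relatives were higher, while 2, Gfi1b and Ikzf4, were higher at an unadjusted p under 0.05. With both drugs against untreated cells 5 were called higher, Gfi1b among them by 0.42 ± 0.05 (adjusted p = 4.98e-05), and 8 lower. Among all genes 24.7% were called higher and 25.1% lower in that comparison.

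Partners and regulators of these factors numbered 30, with 28 tested. With Dex against untreated cells 8 were called higher and 14 lower, but total count scaling turned this split to 12 higher and 8 lower. Among all genes 25.5% were called higher and 26.0% lower with TMM scaling. The median log2 difference was -0.06 over the partners and regulators and 0.01 over all genes. Cbfb, the non-DNA-binding partner of RUNX1, had 4748 and 5087 normalized counts with Dex plus GW7647, 5238 and 5410.0 with Dex, and 2802 and 2552 in untreated cells. Cbfb was higher with Dex than in untreated cells, by 0.99 ± 0.06 (adjusted p = 5.74e-07), where Runx1 was lower. Jun, a leucine zipper partner of PU.1 in activating macrophage genes, averaged 750.1 ± 33.2 with Dex plus GW7647, 810 ± 71.3 with Dex and 3027 ± 41.4 in untreated cells (SD, n = 2 each). It fell by 1.90 ± 0.07 with Dex against untreated cells (adjusted p = 1.75e-08). Atf4, a partner of C/EBPγ, fell by 0.80 (adjusted p = 6.84e-07) and Lmo2, a bridging subunit of erythroid GATA1 complexes, by 0.71 (adjusted p = 6.86e-07). Nab2, a corepressor of EGR factors, rose by 1.05 with both drugs against untreated cells (adjusted p = 2.57e-06), where 7 partners were called higher and 14 lower, and 10 each with total count scaling. Among all genes 24.7% were called higher there and 25.1% lower with TMM scaling.

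Between Dex plus GW7647 and Dex, 2 partners were called higher and 4 lower, against 2.15% and 7.58% of all genes. Id2, a dominant-negative helix-loop-helix factor, had 120.0 and 116 normalized counts with Dex plus GW7647, 269 and 291 with Dex, and 265 and 253 in untreated cells, an order like that of Gfi1 and Cebpd. It fell by 1.24 ± 0.12 (adjusted p = 0.000125). Id1 fell by 0.55 (adjusted p = 0.00263) and Gata2, a progenitor GATA factor, by 0.29 (adjusted p = 0.00742). Runx1t1, the corepressor ETO, had 181 and 159 normalized counts with Dex plus GW7647, 72.5 and 72.2 with Dex, and 147 and 132 in untreated cells. It rose by 1.24 ± 0.14 with Dex plus GW7647 against Dex (adjusted p = 0.000548), and its Dex libraries were the lowest.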

How the data were processed

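RNA was measured in 6 polyA libraries, and reads were processed with TopHat 1.4.1, HTSeq and DESeq on builds mm9 and NCBIM37, per the submitters' processing notes. Strand use in counting is not given in the sources used here. The authors deposited whole-number counts per gene and library in 2 tables of 37620 genes, which agreed for the shared libraries. The authors' normalized signal, also deposited, equals the counts over a size factor for the library and table. The deposited ratio of group means and the deposited p-value with its adjusted form served only as an alternative. In the Dex plus GW7647 and Dex table that ratio runs Dex over Dex plus GW7647.

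Symbols were joined by identifier from GENCODE M21 (GRCm38) for 32897 genes (87.4%). All 6 libraries entered 1 fit in edgeR 4.0.16 (R 4.3.3). The filter on low counts was filterByExpr with its minimum set to 10, which left 14125 genes holding 99.97% of counts. Libraries were scaled by TMM, and the quasi-likelihood test was used with Benjamini-Hochberg adjustment over these genes and a threshold of 0.05. The procedure was tested on simulated data. A normalized count is the count over the library's TMM-scaled size, times the mean size. Per-kilobase levels use M21 exon lengths.

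The 10 genes and the lists were chosen with earlier results of these data known, and 2 of the motifs, TATAAA and CCAAT, were added with the sequences in view. All 10 genes are described. From each of the 4 pathway lists, up to 4 called genes per comparison with the smallest p and a mean of at least 50 normalized counts are named, and the 3 nearest patterns per factor. Some of these genes are left out of the text. Alternatives were RLE or total count scaling, other filters, DESeq2 1.42.0, limma-trend (limma 3.58.1), the libraries compared alone, a replicate block, the authors' adjusted p and leaving out each library.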

Additional observations from a re-analysis of the deposited data

How the results depend on the processing

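The calls of the 10 factors in both comparisons with untreated cells were the same under each alternative run. With Dex plus GW7647 against Dex, 6 factors were called lower and 1 higher with no filter on low counts, and 6 and 1 with a block that crosses the replicate numbers, added after seeing the data. Leaving out 1 library gave 2 to 3 lower and 0 to 1 higher. Cebpa (adjusted p = 0.00857 and 0.0263), Cebpb (0.0017 and 0.0435), Cebpe (0.0229 and 0.0345) and Irf8 (0.00429 and 0.0297) passed with no filter and with the crossed block, and Irf8 also with the filter set at 50 counts on average (0.0452) and with limma-trend (0.038). Leaving out 1 library moved the log2 difference of Cebpd for Dex against untreated cells between -0.40 and 0.048, positive without Dex replicate 2. It moved that of Ikzf1 for Dex plus GW7647 against Dex between -0.025 and 0.026, positive without Dex replicate 2, and the authors' deposited table gave 0.0011. None of these was called. The causes were not tested.

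Relatives called in that comparison, 2 in all, numbered 1 in DESeq2, 1 by the authors' adjusted p and 1 to 2 without single libraries. Partners numbered 3 to 5 without single libraries, with 3 lacking replicate 2 of Dex plus GW7647, against 6. PU.1 targets numbered 7 by the authors' adjusted p and 7 to 13 without single libraries.

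Replicate numbers were not shown to pair the libraries: deviations of replicate 1 correlated at 0.15 between Dex plus GW7647 and Dex, -0.05 between Dex plus GW7647 and untreated, and -0.21 between Dex and untreated. A replicate block gave 998 calls against 1374 for Dex plus GW7647 against Dex, and 1 relative. The crossed block gave 2240 genes.

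Across all genes, Dex plus GW7647 against Dex gave 1374 calls, but 548 without replicate 1 and 618 without replicate 2 of Dex plus GW7647, 2085 with no filter and 928 by the authors' adjusted p. Total count scaling called 5451 genes higher and 2584 lower for Dex against untreated, against 3606 and 3677 with TMM, and 5480 and 2719 for Dex plus GW7647 against untreated, against 3486 and 3539. With 2 libraries per group, and 14 to 151 counts per library for Irf8, Cebpd and Cebpe, differences like that of Irf8 between Dex plus GW7647 and Dex lie at the edge of what this depth shows.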
